A study of Orbicella faveolata with 56 samples.

Results

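Corals A3, A5 and A6 of the Caribbean reef coral Orbicella faveolata carry one genotype label, In1, and 150 of the 87440 genes in the host table were chosen because they differed most among these 3 clonal corals. Of the 87440, 18748 had a mean of at least 5 CPM (the count scaled to a library total of 1000000) over the 12 In1 libraries and are called expressed below. A gap of at least 1 between the highest and the lowest coral mean on the log2(CPM+1) scale was found in 577 of the expressed genes, and the 150 kept were those of the 577 with the largest share of the sum of squares of log2(CPM+1) lying between the 3 corals. Because these values chose the genes, the differences among A3, A5 and A6 are given as a description, without a test.

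RNA was sequenced from tissue of 14 corals, each split into 4 fragments that were placed at an offshore or an inshore transplant site of the Florida Keys and then held at 32 or 30 °C for 6 days after a 7-day change of temperature. A3, A5 and A6 were of inshore origin, from the collection site UKI2, with 4 libraries each. The corals they are set beside are the inshore-origin B1 (genotype In4), B2 (In5), B3 (In6), B4 (In7) and B6 (In2), with 20 libraries, and the offshore-origin C1 to C6 (O1 to O6), with 23 libraries, all from the collection site IKO2. Each genotype other than In1 was 1 coral, so genotype and coral cannot be told apart there, and every comparison below rests on fragments of these few corals.

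Reef-building corals grow by budding and spread by breakage, so that separate colonies can share one genotype. Their gut cells house dinoflagellate algae that pass photosynthate to the animal, and the number of algae varies with site and stress. In RNA sequencing against an assembly made without a genome, alleles and close copies of a gene can become separate entries, and an entry can then read as present or absent according to which sequence a coral carries. The files do not pair the identifiers with gene names, so no function is given for any gene here. All identifiers begin with OFAVBQ_, which is left out below.

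Libraries held 2850075 to 7239229 host counts each over all 55, and 2850075 to 5807102 over the 12 of In1, where 1 CPM stood for 2.85 to 5.81 counts. By their correlation over the 18748 genes, In1 libraries of one coral had a median r of 0.951 and In1 libraries of different corals a median r of 0.946, against 0.874 for libraries of different genotypes. The library most like each In1 library was another In1 library in 12 of 12 cases and one of the same coral in 8 of 12. In all, 9 libraries stood apart, with a mean correlation over 3 median absolute deviations below the median. They include A6 at the inshore site at 30 °C and A6 at the offshore site at 32 °C, which also had the lowest host total. The choice of the genes, the A6 symbiont ratio and the fit of the 12 In1 libraries are given below with and without these 2 libraries. Other values, such as the counts for pairs of corals, are given only with them.

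Clonal corals differed in few genes compared with corals of different genotypes. In 1 fit over the 32 libraries of inshore origin, edgeR's quasi-likelihood test with Benjamini-Hochberg adjustment called 39 genes between A5 and A3 (0.131% of 29680 tested), 29 between A6 and A3 (0.0977%) and 46 between A6 and A5 (0.155%). The 25 pairs of corals of different genotypes gave 5177 to 8337 genes each (17.4% to 28.1%). At an unadjusted p under 0.05 there were 1093 genes between A5 and A3, 2735 between A6 and A3 and 2109 between A6 and A5. The pairs of different genotypes had 7810 to 11519. The pairs with A6 were not fitted without the A6 libraries that stood apart. In a fit of the 12 In1 libraries alone, 33 of 28391 genes differed among the 3 corals (0.116%, and 0.133% of the expressed ones), and 25 of them were among the 150. The rule used the same contrast, so nothing is read from that count. It changed with the method, to 249 genes with DESeq2, to 2198 without a filter on low counts and to 381 without the 2 A6 libraries that stood apart.

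**Figure D1:**
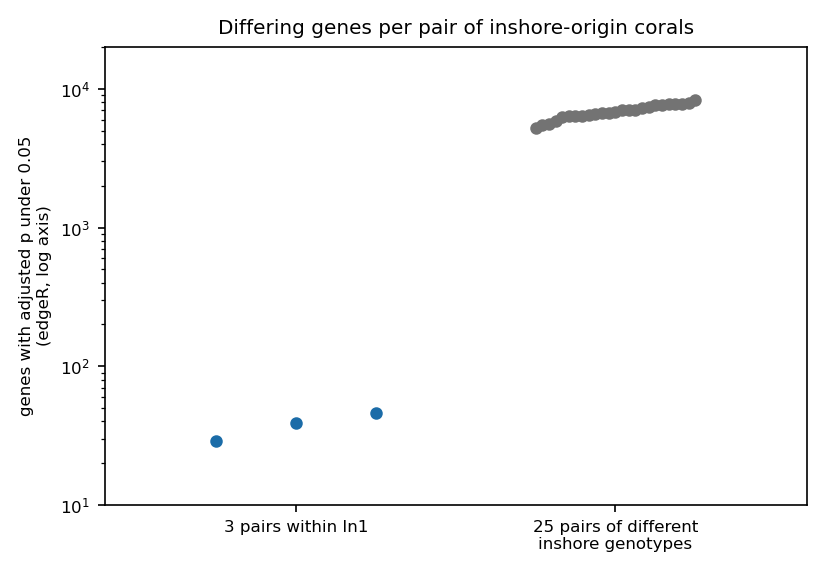
Number of genes with adjusted p under 0.05 (edgeR, log axis) for each pair of inshore-origin corals, every point being 1 pair of corals with 4 libraries each. The 3 pairs within In1 lie between 29 and 46 genes, and the 25 pairs of different genotypes between 5177 and 8337.

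Among the 150 genes, the share of the sum of squares between corals ran from 98.0% down to 55.6%, with a median of 70.7%, against a median of 18.7% over all 18748 expressed genes. The last gene kept had a gap of 1.12, and the first left out had a share of 55.3% and a gap of 1.03. The gap between the highest and the lowest coral had a median of 1.26 on the log2 scale, or 2.39-fold, against 0.25 over the expressed genes. It was over 2 in 29 genes and reached 5.05. Mean levels ran from 5.01 to 1770 CPM with a median of 12.8 CPM, below the 20.2 CPM of the expressed genes.

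For each gene the coral that stood apart was the one whose mean lay farthest from that of the other two. A6 stood apart in 81 of the 150 genes, lower in 73 and higher in 8. A3 did so in 37 genes, higher in 26 and lower in 11. A5 did so in 32, lower in 19 and higher in 13. The 4 libraries of the coral apart all lay beyond the 8 of the other corals in 79 genes. This separation held in 18 of the 19 genes lower in A5, but in 35 of the 73 lower in A6. No gene was at 0 in all 4 libraries of an In1 coral, and 2 genes were under 1 CPM in all 4, both in A6.

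**Figure D2:**
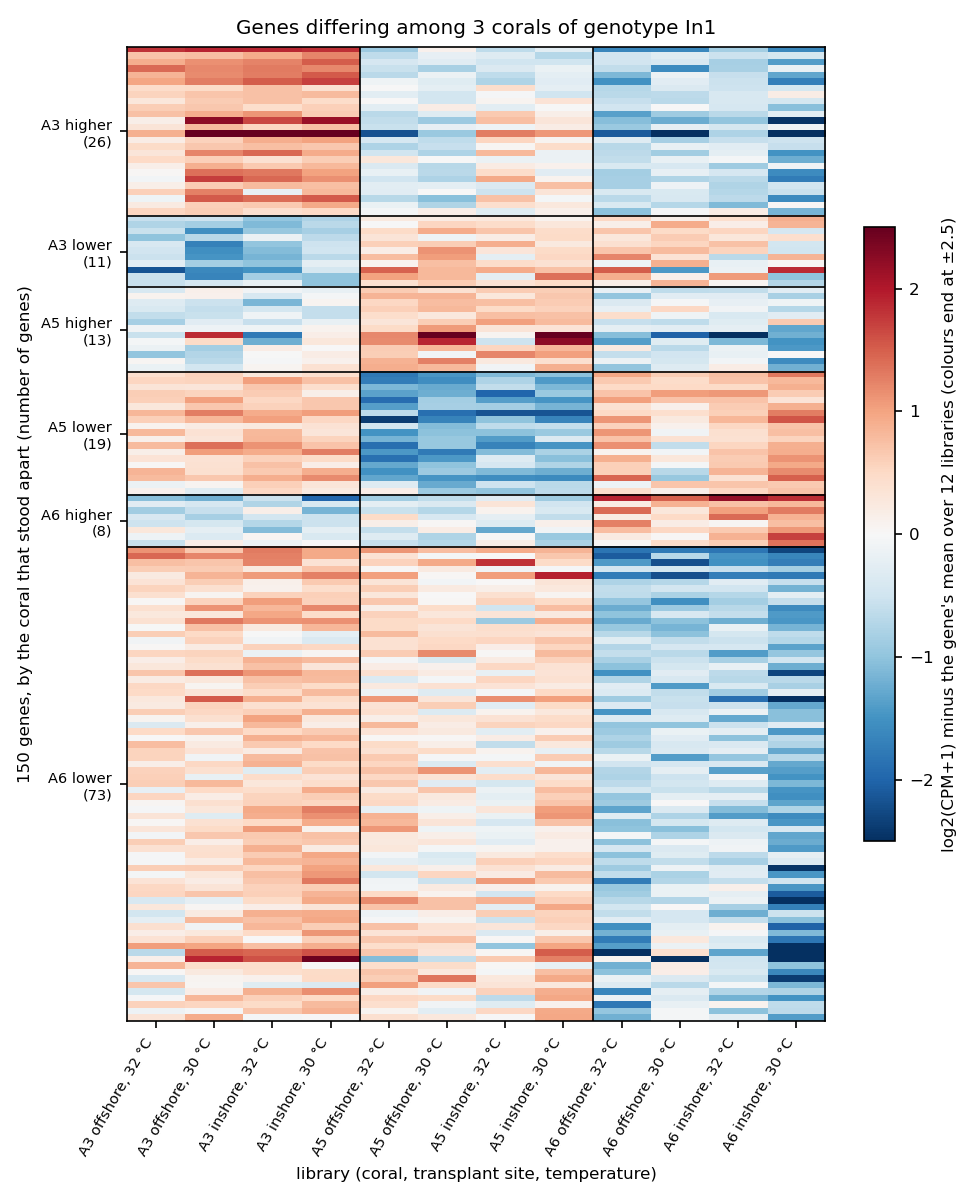
Level of each of the 150 genes (rows) in the 12 In1 libraries (columns), as log2(CPM+1) minus the gene's mean over the 12, red above and blue below the mean, grouped by the coral that stood apart and sorted by share within a group. The block of 19 genes lower in A5 is even over its 4 libraries, whereas the 73 genes lower in A6 are lowest in the inshore library at 30 °C.

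The genes lower in A5 formed the sharpest group. Their shares had a median of 86.2%, 6 of the 19 were over 90%, and A5 lay a median of 1.78 below the other corals on the log2 scale, or 3.44-fold. DN219170_c2_g1 had 0.94, 1.44, 2.09 and 2.25 CPM in A5, against 7.06 to 8.98 CPM in A3 and 9.18 to 15.7 CPM in A6. The highest A5 library thus lay well under the lowest of the other 8, and the mean of 1.68 ± 0.61 CPM (SD, n = 4) was 5.87-fold below the 9.86 ± 2.80 CPM of the others (n = 8). DN221932_c0_g1 had 2.58, 2.99, 3.42 and 5.86 CPM in A5, against 16.04 to 23.1 CPM in A3 and 15.1 to 19.6 CPM in A6, a 4.87-fold difference of the means. Here A3 and A6 overlapped, and A5 alone was low.

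The same genes were near 0 in some other genotypes and at full level in others. DN219170_c2_g1 averaged 0.04 to 0.37 CPM in B2, B3, C2, C4 and C6, against 5.90 to 24.3 CPM in B1, B4, B6, C1, C3 and C5. DN221932_c0_g1 averaged 0.72 to 0.96 CPM in B1, B2, C5 and C6, against 10.4 to 26.5 CPM in the other seven. For both genes A5 lay between the low and the high corals, above each of the near-0 means and below every mean of the high set. Of the 19 genes, 11 averaged under 1 CPM in at least 1 other coral (57.9%) and 10 did so in 2 or more. Over all 150 genes 27.3% did so in at least 1, and 7.80% of the expressed genes, with 46.2% of the genes higher in A5 and 37.5% of those higher in A6. The genes lower in A5 also had the lowest median level of the sets, 7.63 CPM against 20.2 CPM over the expressed genes, and the part of that low level in the count was not tested.

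The 13 genes higher in A5 were less separated. The median difference was 1.001 on the log2 scale, or 2.002-fold, and 6 of the 13 had A5 wholly above the other corals. DN222496_c1_g1 had 23.2, 27.6, 27.8 and 28.1 CPM in A5, against 13.2 to 19.5 CPM in A3 and 11.01 to 15.1 CPM in A6, with a ratio of means of 1.84. It was listed at 0 in the 4 libraries of B1, which allows up to 0.142 CPM, and averaged 0.05 CPM in B6, while the other nine corals averaged 5.94 to 25.1 CPM. DN219218_c3_g1 had 52.4, 69.1, 77.5 and 77.7 CPM in A5, against 32.1 to 45.9 CPM in A3 and 21.04 to 34.9 CPM in A6. The lowest A5 library was above the highest A3 library, and the A5 mean of 69.2 ± 11.9 CPM (SD, n = 4) was also above that of every other coral, which ran from 6.37 to 63.9 CPM.

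The 26 genes higher in A3 differed by a median of 1.15 on the log2 scale, or 2.23-fold, and in 12 of them A3 lay wholly above. DN213206_c1_g1 had 14.03, 14.3, 14.9 and 15.02 CPM in A3, against 1.30 to 3.62 CPM in A5 and 0.38 to 1.40 CPM in A6. The A3 mean of 14.6 ± 0.47 CPM (SD, n = 4) was 9.83-fold the mean of the others, and no other coral came near it, the highest being B1 at 5.24 ± 1.72 CPM. DN200196_c2_g1 had 63.9, 65.6, 74.7 and 91.9 CPM in A3, against 23.3 to 33.4 CPM in A5 and 26.2 to 31.2 CPM in A6. In this gene A3 resembled the other genotypes, which averaged 52.6 to 167 CPM, and A5 and A6 lay under all of them. Over the 26 genes, A3 was above all 11 other corals in 15 and within their range in 11. A3 lay above all 11 in 16.99% of the expressed genes. The rule used its means, so the 15 are a description.

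In the 11 genes lower in A3, A3 lay nearer to the median of the other genotypes than A5 and A6 did in 11 of 11. A5 and A6 together lay above all of those genotypes in 7. Each In1 coral lay above all 11 other corals in 15.7% to 17.2% of the expressed genes, and below them in 4.03% to 5.20%. Both counts also rest on means that the rule used, so they are a description. DN223424_c1_g1 had 12.2, 14.1, 16.3 and 16.99 CPM in A3, against 26.6 to 30.0 CPM in A5 and 27.7 to 47.7 CPM in A6. The other corals averaged 6.74 to 20.1 CPM, a range that holds A3 and neither of its clones. DN199048_c0_g3 had 2.36, 3.004, 3.28 and 3.52 CPM in A3, against 6.14 to 9.47 CPM in A5 and 6.999 to 12.7 CPM in A6. It averaged 1.49 to 4.75 CPM in 8 of the other corals, 8.67 and 11.9 CPM in C1 and C2, and 82.1 ± 131 CPM in C3 (SD, n = 3), where the libraries spread widely.

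In A6, 8 genes were higher, with a median difference of 1.09 on the log2 scale, and 3 of them had A6 wholly above. DN222737_c1_g1 had 35.3, 45.7, 47.4 and 58.6 CPM in A6, against 2.26 to 7.92 CPM in A3 and 5.99 to 9.62 CPM in A5. Its A6 mean of 46.7 ± 9.54 CPM (SD, n = 4) was 7.61-fold that of its clones, and the 11 other corals averaged 2.90 to 10.9 CPM. DN219685_c3_g1 had 13.5, 23.1, 28.4 and 30.5 CPM in A6, against 4.33 to 12.2 CPM in A3 and 6.21 to 11.7 CPM in A5. Here A3 and A5 were the low corals of the whole series, since the other genotypes averaged 23.9 to 45.8 CPM and the A6 mean of 23.9 ± 7.61 CPM lay just under the lowest of them.

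**Figure D3:**
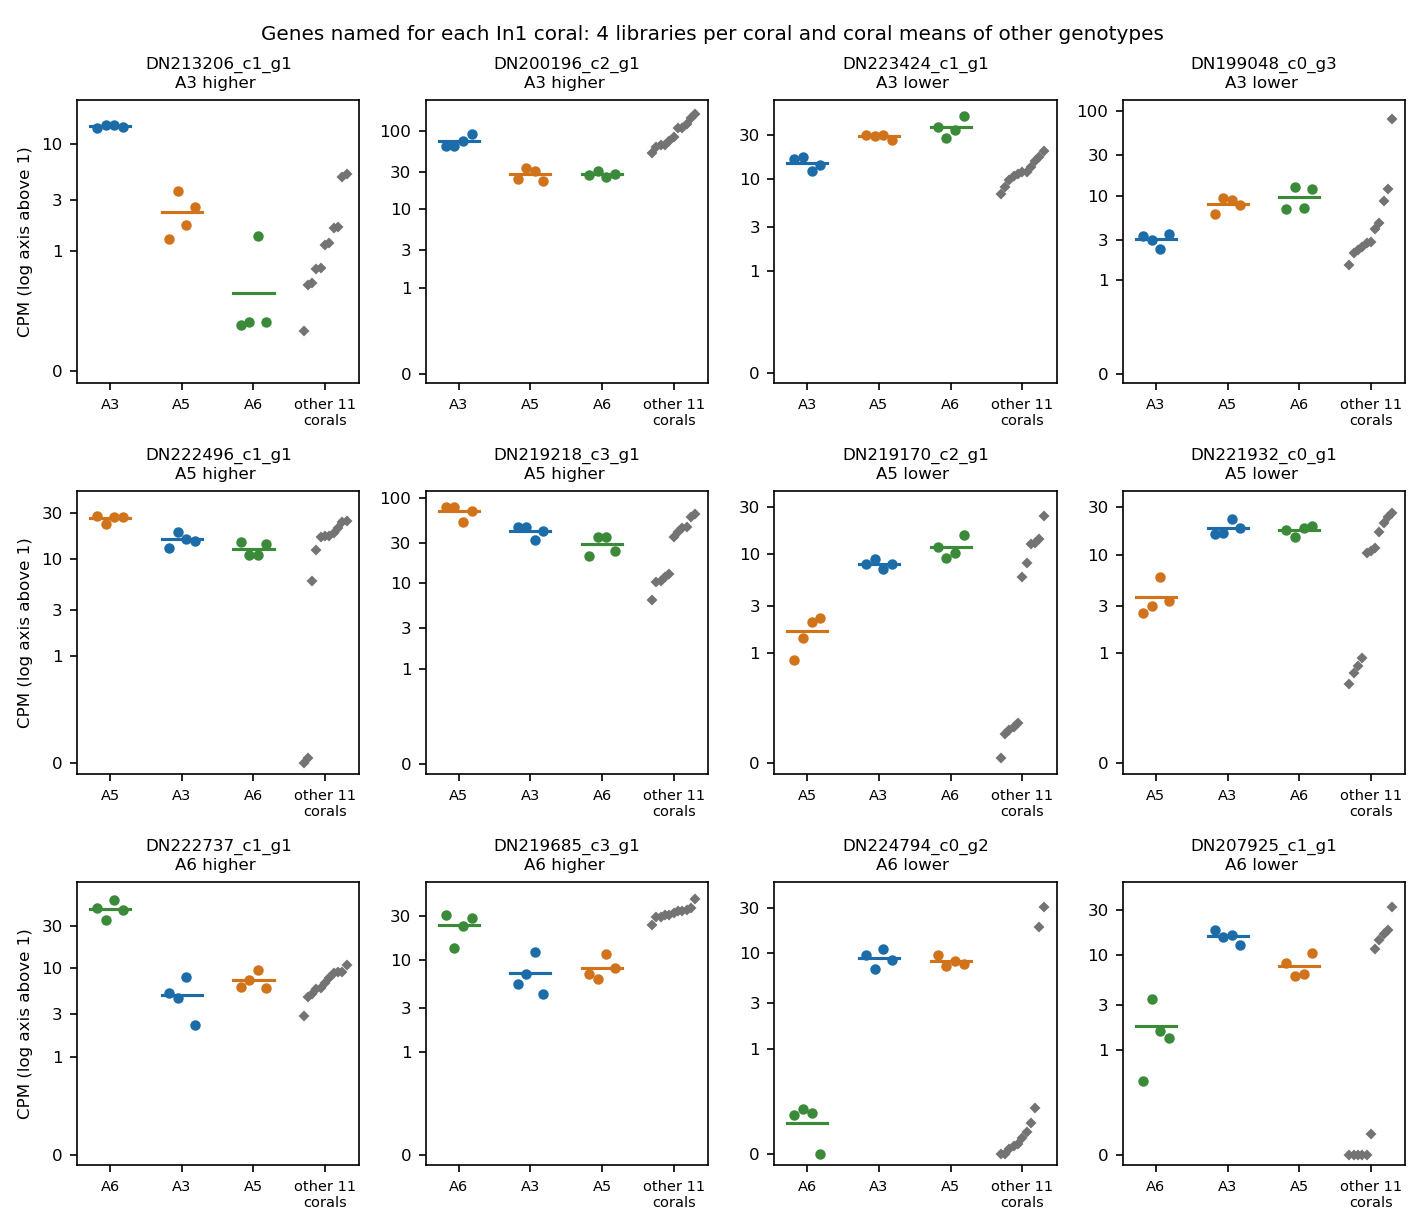
CPM (axis linear below 1 and logarithmic above) of the 12 genes named for the 3 In1 corals; circles are the 4 libraries of each In1 coral with a line at their mean, the coral apart leftmost, and diamonds are the means of the 11 other corals. DN222737_c1_g1 is above all other corals in A6 alone, while DN224794_c0_g2 is near 0 in A6 and in 9 of the 11 other corals.

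The 73 genes lower in A6 made up the largest group and the loosest. A6 lay a median of 1.09 below its clones on the log2 scale, or 2.13-fold. DN224794_c0_g2, the gene with the largest share of all, had 0, 0.38, 0.39 and 0.43 CPM in A6, against 6.79 to 11.02 CPM in A3 and 7.36 to 9.55 CPM in A5. Outside In1 it was again high or near 0, with 18.8 ± 11.01 CPM in B3 and 30.6 ± 9.18 CPM in C4 (SD, n = 4 each), 0 in the 4 libraries each of B6 and C1, which allows up to 0.144 CPM in each, and means of 0.05 to 0.44 CPM in the other seven. DN207925_c1_g1 had 0.70, 1.32, 1.58 and 3.47 CPM in A6, against 12.8 to 18.4 CPM in A3 and 5.98 to 10.5 CPM in A5, so that all 3 clones were separate. It averaged 11.7 to 32.4 CPM in B1, B2, C2, C4 and C6 and was at most 0.20 CPM in the other 6 corals, 5 of which had no count of it (a limit of 0.144 to 0.211 CPM).

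Most of the 73 genes did not show such a switch. Their levels moved with the 2 A6 libraries that stood apart. The median deviation of the set from the 12-library mean was -1.27 in A6 at the inshore site at 30 °C and -0.88 in A6 at the offshore site at 32 °C, against -0.43 and -0.54 in the other two A6 libraries. In the 43 libraries of other genotypes, the set lay below its own coral's mean in 7 of the 7 that stood apart, by a median of -0.54, and in 11 of the 36 others, which had a median of 0.09. Other sets were low in the 7 libraries as well: the genes higher in A3 in 7 of 7 (median -0.32), those higher in A5 in 6 (-0.48), those lower in A3 in 6 (-0.31) and those lower in A5 in 6 (-0.10). When the rule was applied without the 2 A6 libraries, it chose 18 of the 73 genes again and 3 of the 8 higher in A6; 40 of the 73 kept a gap of at least 1, and the median difference of the 73 from the other clones was -0.89. Of the 19 genes lower in A5 it chose 16 again, 18 kept the gap and the median difference was -1.61. That set stayed within -0.21 and 0.28 of the coral mean in all 43 libraries outside In1. Of its 19 genes, 11 averaged under 1 CPM in at least 1 other coral, where little movement shows on the log2(CPM+1) scale. The part of that floor in the small range was not tested. What sets the libraries apart was not tested.

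**Figure D4:**
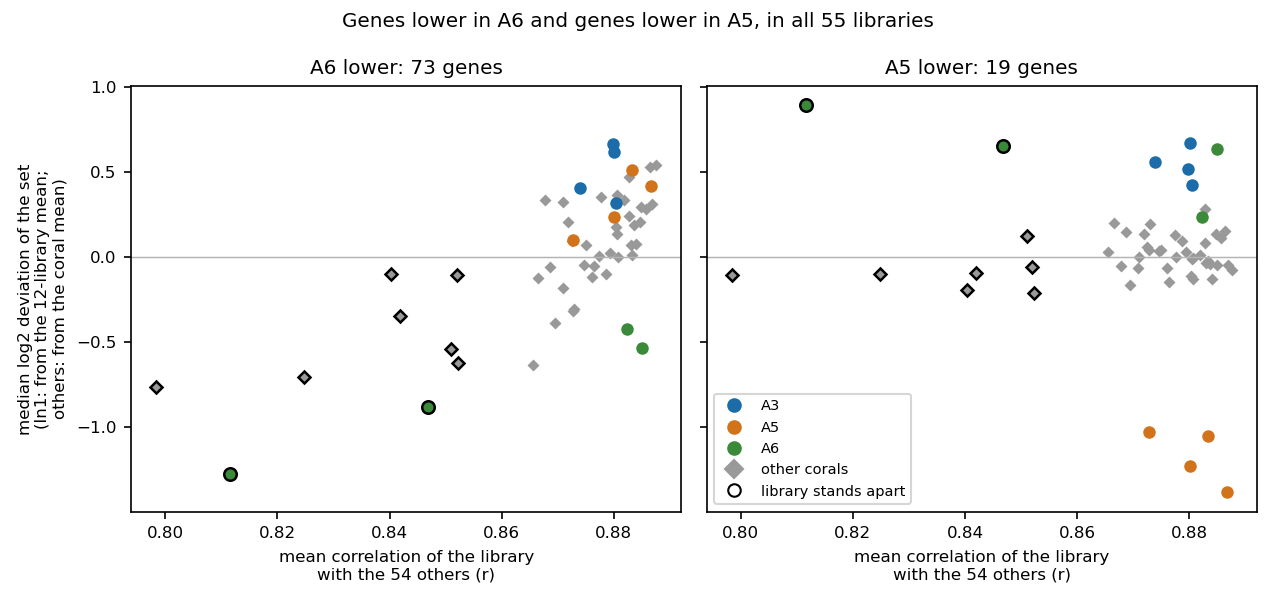
Median log2 deviation of the 73 genes lower in A6 (left) and the 19 genes lower in A5 (right) in each library against the library's mean correlation with the others; In1 libraries are measured from the mean of 12 and the others from the mean of their own coral. Black outlines mark the 9 libraries that stand apart. The A6 set is below 0 in the 7 of them outside In1. It is also below 0 in the 2 from A6, as the choice of the genes asks. The A5 set is below -1 in the 4 A5 libraries, where that choice asks for low values.

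Within other corals, the fragments of one coral also showed the difference between these sets. The mean correlation between pairs of genes over the 43 libraries, taken on deviations from the coral mean, was 0.289 for the genes lower in A6 and 0.0749 for those lower in A5, against 0.0554 over the expressed genes. It was 0.1605 for the genes higher in A3, 0.159 for those lower in A3, 0.0861 for those higher in A5 and 0.0129 for those higher in A6. The part of the low level of the genes lower in A5 was not tested. The points behind these correlations share depth and library quality, and the 2 A6 libraries took no part in them. The 7 other libraries that stood apart are among the 43, and no value without them is given.

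The other genotypes were compared in libraries that the rule did not use. Among the 5 other inshore-origin corals, edgeR's quasi-likelihood test called 79 of the 150 genes (143 of which passed the filter on low counts), which is 52.7%, against 40.7% of all 29820 genes tested and 34.6% of the expressed ones. Among the 6 offshore-origin corals it called 76 (147 passed the filter), which is 50.7%, against 44% of all 30795 and 37.4% of the expressed ones. Both tests called 52 genes, 65.8% of the inshore calls and 68.4% of the offshore ones. Neither called 47, a count that takes in genes that failed the filter. The shares of all tested or expressed genes called in both tests or in neither are not given here. Nothing is therefore read from this overlap. The shares of the 150 take in genes that failed the filter, whereas the shares beside them are over genes tested. The filter passes a gene through the corals where it is high, so the counts describe the genes and are no test of the list.

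By set, the genes lower in A5 had the highest share of calls in both tests. Of the 19 genes lower in A5, 16 were called among the inshore genotypes, 16 among the offshore ones and 15 in both. Of the 73 lower in A6, 33 were called in each test and 22 in both. The counts for both tests have no share of all genes beside them and are a description. Of the 26 higher in A3, the tests called 15 and 10, and of the 13 higher in A5, 8 and 9. The 2 smallest adjusted p-values among the inshore genotypes belonged to DN203295_c1_g1 (1.35e-08) and DN219170_c2_g1 (1.96e-08). DN203295_c1_g1, higher in A5 among the clones, averaged 24.5 ± 2.87 CPM in B2 and 11.8 ± 3.15 CPM in B4, against 0.71 to 1.65 CPM in B1, B3 and B6. Among the offshore genotypes they belonged to DN215243_c0_g3 (adjusted p 2.08e-12, edgeR) and again DN219170_c2_g1 (3.60e-10). DN215243_c0_g3, lower in A6 among the clones, averaged 50.6 ± 5.12 CPM in C1 and 0.58 ± 0.15 CPM in C5 (SD, n = 4 each), with 9.91 to 23.2 CPM between them.

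The range of means over the 11 other corals was also wider than that over the 3 clones in most of the 150 genes. The gap between the highest and lowest mean of the 11 other corals had a median of 2.18 on the log2 scale, against 0.90 over the expressed genes, and it exceeded the gap within In1 in 122 of the 150. It runs over 11 corals and not 3, so the gaps are not on an equal footing. The share of the expressed genes in which it was larger is not given here. The coral apart lay outside the range of the 11 others in 44 genes, above it in 26 and below it in 18, and it was nearer to their median than its clones were in 78. Over the expressed genes, each In1 coral lay above the 11 others in 15.7% to 17.2% and below them in 4.03% to 5.20%. The rule used the means of the coral apart, so these counts are a description.

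Transplant site and temperature were tested in the 43 libraries of the other genotypes, where few genes of any kind were called. With coral as a block, edgeR called 2 of the 150 genes (1.33%) for the offshore against the inshore site, 0 higher and 2 lower offshore. It called 0.369% of all 34186 genes tested (0.164% higher and 0.205% lower) and 0.316% of the expressed ones. At an unadjusted p under 0.05 there were 13. The median log2 change was -0.01 in those that passed the filter. Leaving out any of B1, B2, B6, C3, C5 and C6 brought the number called to 1.

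DN197209_c0_g3 was the most abundant of the 150 genes and had the widest gap. In the other genotypes it had 71.9, 315 and 3016 CPM at the offshore site (lowest, median and highest of 22 libraries), against 69.4, 1340 and 5664 CPM at the inshore site (21 libraries). The sites overlapped, but it was lower at the offshore site in 17 of 21 pairs of fragments of one coral, with a log2 change of -1.77 ± 0.34 (SE, adjusted p 0.00362, edgeR). Among the clones it had 1100, 4915, 4919 and 6575 CPM in A3, against 130 to 1434 CPM in A5 and 31.8 to 346 CPM in A6. In A5 the 2 offshore libraries had 130 and 310 CPM and the 2 inshore libraries 1251 and 1434 CPM, so its level there differed between sites as well as between corals. DN205532_c0_g2 had a median of 4.08 CPM at the offshore site and 9.66 CPM at the inshore site, with a log2 change of -0.77 ± 0.17 (SE, adjusted p 0.0326, edgeR) and a lower value offshore in 18 of 21 pairs. Its call was lost in 8 of 17 alternatives, with an adjusted p of 0.29 without the coral block and of 0.00311 to 1 over all of them (edgeR or DESeq2).

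For 32 against 30 °C the same model called 3 genes, 1 higher and 2 lower at 32 °C, against 2.26% of all genes tested (1.29% higher and 0.974% lower) and 3.05% of the expressed ones, and 32 at an unadjusted p under 0.05. The share called among the 150 is near that background. DN200708_c0_g1 had a median of 8.62 CPM at 32 °C, against 13.4 CPM at 30 °C, with a log2 change of -1.004 ± 0.16 (SE, adjusted p 0.000732, edgeR). It was lower at 32 °C in 19 of 21 pairs, though the ranges of 0.59 to 19.2 and 7.20 to 30.0 CPM overlapped. DN219685_c3_g1, the gene that A3 and A5 held at low level, had a median of 38.8 CPM at 32 °C and 27.4 CPM at 30 °C and was higher at 32 °C in 18 of 21 pairs (log2 change 0.43 ± 0.08 SE, adjusted p 0.00247, edgeR).

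DN196585_c0_g2 differed between clones and with temperature. In A5 it had 5.02 and 12.2 CPM at 32 °C, against 38.7 and 45.8 CPM at 30 °C, and in A3 it had 0.69 and 2.87 CPM at 32 °C, against 5.46 and 19.9 CPM at 30 °C. In A6 it stayed at or under 1.75 CPM at both temperatures. In the other genotypes its median was 0 CPM at 32 °C (highest 24.7) and 4.90 CPM at 30 °C (highest 110), and the log2 change was -2.83 ± 0.75 (SE, adjusted p 0.0381, edgeR), with a lower value at 32 °C in 15 of the 19 pairs that differed. The call was lost without a coral block (adjusted p 0.173) and without the libraries that stood apart (adjusted p 0.0847). Libraries with library numbers under 17 were all at 30 °C, so temperature and that numbering were partly joined.

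The symbiont counts differed widely between sites in A3 and A5, while in A6 the sites overlapped. A second table of counts for the alga Durusdinium trenchii gives the ratio of symbiont to host counts, for that one symbiont. In A3 the ratio was 0.21% and 0.51% at the offshore site, against 16.3% and 20.1% at the inshore site, and in A5 it was 0.21% and 0.26%, against 7.21% and 10.8%. In A6 the ratio was 5.07% and 11.1% at the offshore site and 3.44% and 17.3% at the inshore site. The overlap rests on the A6 libraries that stood apart, at 11.1% offshore and 3.44% inshore. Without them A6 had 5.07% offshore and 17.3% inshore. The 3 corals accounted for 15.6% of the sum of squares of the log2 ratio. In such bulk samples fewer cells of this alga and less RNA per cell cannot be told apart, and other symbionts were not counted.

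Across the 12 In1 libraries the correlation of a gene with the log2 ratio ran from -0.64 to 0.52 over the 150 genes. It passed 0.5 in size in 9 of them (6%) and in 8.73% of the expressed genes; these points share corals, sites and depth. The rule chose genes that vary between corals, where 15.6% of the sum of squares of the ratio lies, so it bears on these correlations, and nothing is read from the shares. The genes lower in A5 had a median r of 0.39 with the ratio. Their set medians were -1.03 and -1.05 in the 2 A5 inshore libraries and 0.42 and 0.56 in the A3 offshore libraries, values that the choice of the genes fixes in large part.

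**Figure D5:**
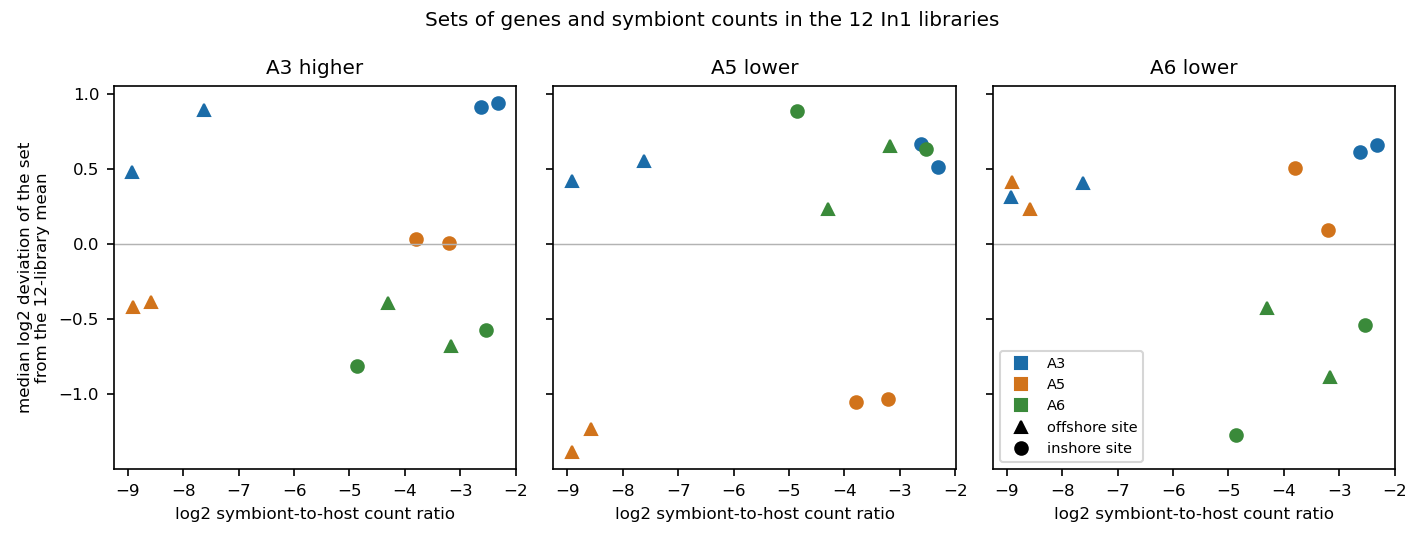
Median log2 deviation from the 12-library mean of the genes higher in A3 (26), lower in A5 (19) and lower in A6 (73), against each In1 library's symbiont-to-host count ratio (log2) (triangles offshore site, circles inshore site). The A5 set is below -1 in all 4 A5 libraries and the A6 set below 0 in all 4 A6 libraries, as the choice of the genes asks.

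In the other genotypes, where the ratio ran from 0.051% to 36.7%, the slope on the log2 ratio with coral as a block and temperature as a term was called in 3 of the 150 genes by edgeR, 3 positive and 0 negative, against 0.45% of all genes tested (0.249% positive and 0.202% negative) and 0.439% of the expressed ones; 20 passed an unadjusted p under 0.05. The first 2 were the genes named for site. DN205532_c0_g2 rose by 0.15 ± 0.03 log2 units per doubling of the ratio (SE, adjusted p 0.0129, edgeR), and DN197209_c0_g3 rose by 0.31 ± 0.07 (adjusted p 0.0198, edgeR). The third, DN197540_c0_g1, is named after its values were seen and rose by 0.12 ± 0.03 (adjusted p 0.0406, edgeR). Pooled over these corals, the ratio had a median of 0.156% in the 22 libraries at the offshore site and 12.5% in the 21 at the inshore site. In C1 to C6 it was 0.051% to 2.27% offshore and 5.36% to 36.7% inshore. B1 and B3 were at 0.109% to 0.162% offshore and 0.247% to 2.45% inshore. Over both sites, B2 was at 27.4% to 33.6%, and B4 and B6 were at 0.086% to 0.161%. With site and temperature as conditions beside the ratio, no gene of the 150 kept a call for either term. The number called also fell to 0 without C5 and to 1 without B3, C1 or C3. These fits therefore did not tell site and symbiont ratio apart for these genes.

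The identifiers group entries into components of the assembly, which can hold alleles, copies or fragments of one gene. The 150 genes lay in 142 components, and 15 of them shared 7. For 70 genes the component held no other entry. Of the 80 with sister entries, none had a sister in which the coral apart differed by 1 or more on the log2 scale in the opposite direction. When the counts of all entries of a component were summed, the component of 56 of those 80 kept a gap of at least 1. Summing leaves the 70 genes without a sister entry unchanged, so it says nothing about them.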

How the data were processed

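Host and symbiont values are expected counts per transcript entry, which the authors deposited without normalization; the submitters' processing notes list RSEM and Trimmomatic 0.36, and the table names point to kallisto. No source used here names the assembly or the quantifier's version. Stranded mRNA libraries were made, per the labels' protocols. Of each table, 1 column matched no label and was not used, which left 55 libraries. Of the host values 74.7% were whole, and all were rounded before count tests. The 150 genes and the tests were chosen with earlier results of these data known.

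CPM were computed on column sums, with a pseudocount of 1 on the log2 scale. For tests, quasi-likelihood F tests of edgeR 4.0.16 (R 4.3.3) were run after TMM scaling and a filterByExpr minimum count of 10, with Benjamini-Hochberg adjustment at 0.05 over all genes tested; they were tested on simulated data. Coral differences were fitted with site and temperature as conditions. Site, temperature and symbiont ratio were fitted with coral as a block, since the 4 fragments of a coral are one animal; p-values measure the spread between these corals' fragments. Alternatives were RLE factors, no filter, DESeq2 1.42.0, fits with other terms, other settings of the rule, and leaving out each coral or library.

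For each In1 coral and direction, the genes named are the 2 with the largest share among those whose 4 libraries all lay beyond the other 8; for each test they are the 2 with the smallest adjusted p in each direction. No sequence of the assembly was used here.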

Additional observations from a re-analysis of the deposited data

Results flagged for a closer look

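For the 18 genes named and for the symbiont ratio, the 4 libraries of each In1 coral were searched for 1 far from the others, on the log2 scale, which made 57 groups of 4; chance alone marks about 1 in 20. In all, 4 values were marked. DN213206_c1_g1 had 1.40 CPM in A6 at the inshore site at 32 °C, above 0.38 to 0.41 CPM in the other A6 libraries. DN222496_c1_g1 had 23.2 CPM in A5 at the offshore site at 30 °C, below 27.6 to 28.1 CPM in the rest. DN224794_c0_g2 was at 0 CPM in A6 at the inshore site at 30 °C, where the others held about 1 or 2 counts. DN197209_c0_g3 had 1100 CPM in A3 at the offshore site at 32 °C, against 4915 to 6575 CPM in the other A3 libraries.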

How the results depend on the processing

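Counts among the other genotypes held under most settings. Leaving out 1 coral at a time gave 67 to 79 genes differing among the inshore and 61 to 75 among the offshore genotypes, 1 to 3 genes for site, 2 to 4 for temperature and 0 to 4 for the symbiont ratio. Without the replicate block, 1 gene was called for site, 2 for temperature and 1 for the ratio. DESeq2 called 8 for temperature and 6 for the ratio. Without the libraries that stood apart, a setting chosen after seeing the data, 1 gene was called for the ratio. Site with the ratio as a further term, and the ratio with site and temperature as conditions, gave 0 genes by edgeR, with 22 and 20 at an unadjusted p under 0.05. Over all 34186 genes tested, these fits had 1639 and 2192 at that threshold. In the second of these the slope of DN205532_c0_g2 changed sign (-0.026, adjusted p 0.998 by edgeR). The calls for DN196585_c0_g2 were lost in 11 of 17 alternatives (adjusted p 0.0145 to 0.173). The ratio calls were lost in 7 of 17 for DN197209_c0_g3 and 3 of 17 for DN205532_c0_g2 (adjusted p up to 0.82 and 0.998), and the site call of DN197209_c0_g3 in 1 of 17. The cause of these changes was not tested.

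The test among the In1 corals was unstable: 2198 genes without the low-count filter, 249 with DESeq2, 381 without the 2 A6 libraries that stood apart, and 10 to 59 leaving out 1 library. It gave 59 without A6 at the offshore site at 30 °C, 10 without A3 at the inshore site at 32 °C, and 12 to 20 without A3 at the offshore site at 32 or the inshore at 30 °C, A5 at the offshore site at either temperature or the inshore at 30 °C, or A6 at 32 °C at either site. Of the 150 genes, the rule still chose 83 with a floor of 1 CPM, 93 with 10 CPM, 77 with a pseudocount of 5 (77 kept a gap of at least 1), 62 without the 2 A6 libraries, and 75 to 135 without 1 library, lowest without A6 at the offshore site at 30 °C; 121 to 148 then kept the gap. The named differences among clones kept their sign under every pseudocount, scaling and left-out library tried, with 9 of them moved by more than the spread within corals, by the pseudocount alone.

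Gaps of genes near 5 CPM rest on about 14 to 29 counts per library, and counts near 0 cannot separate absence from low level. With 3 clonal corals, results describe these corals.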

Other observations

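Over all 150 genes, A3 lay above the 11 other corals in 54 (36% of them, against 16.99% of the expressed genes), A5 in 45 (30%, against 15.7%) and A6 in 13 (8.67%, against 17.2%). A6 lay below the 11 other corals in 23 (15.3%, against 5.20% of the expressed genes), A5 in 11 (7.33%, against 4.03%) and A3 in 2 (1.33%, against 4.37%). A6 was the lowest of the 3 clones in 106 genes and A3 the highest in 90. The rule picked genes by gaps between the means of these 3 corals, which bears on where each clone lies. The shares are therefore a description.

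Within In1, the difference between the offshore and the inshore site had a median size of 0.23 on the log2 scale over the 150 genes and 0.13 over the expressed genes, and that between 32 and 30 °C 0.14 and 0.11. The rule favours genes that vary little within a coral, so these values are a description. The difference passed 1 in 1 gene for site and in 2 genes for temperature.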
